A study of Mus musculus with 48 samples.

Results

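RNAs recovered on HA beads from mouse embryonic stem cells that carry the tagged protein HA-AVI-Tnrc6a were compared with what the same beads recovered from untagged cells. The comparison rests on 24 of the 48 libraries of the series, namely inputs (RNA of the cleared lysate) and immunoprecipitates (IP, RNA recovered on HA magnetic beads) of these lines in 2 experiments, numbered 3 and 4. Enrichment is the log2 ratio of IP to input in tagged cells less the same ratio in untagged cells, formed within each experiment and averaged over both. A value of 1 is therefore a 2-fold higher recovery, relative to other RNAs, with the tagged protein than the beads give without it. Counts are scaled within libraries and do not give amounts of RNA on the beads. Lower or depleted below thus means a smaller share of the recovered RNA, which need not be a smaller amount. Each of the 8 groups held 3 libraries from triplicate dishes, and lysates were matched for protein before the beads were added, per the labels. Fewer cells of a kind and less RNA per cell cannot be told apart in such bulk lysates. The untagged line is of 129S6/SvEvTac origin and carries the reporter GFP_5xT71BS, which the labels also call yGlob, and a stably transfected FLAG-Cas9::T2A::Blasticidin construct. The tagged line has the genotype GFP_5xT71BS with HA-AVI-Tnrc6a, so both lines share the reporter. How many clones stand behind each line, and whether every Tnrc6a copy carries the tag, is not given in the sources used here.

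Tnrc6a belongs to the GW182 proteins, which bind Argonaute proteins loaded with microRNAs and bring the CCR4-NOT and PAN deadenylases to the bound messenger RNA, so that it is translated less and decays sooner. A microRNA pairs with its targets mainly through the seed, bases 2 to 8 from its 5′ end. In mouse embryonic stem cells the most abundant microRNAs are those of the miR-290 cluster, with the miR-302 and miR-17 families sharing much of their seed, while let-7 is held low by Lin28 and Trim71 and accumulates on differentiation.

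Mature sequences of some members of these families are given here because 2 of the gene lists below are their reported targets. They are from RefSeq (GRCm38.p6), with the seed in capitals. The 5 miR-290 and miR-302 members printed here share 1 seed, which need not hold for members not printed. The printed miR-17 family members have most of its bases moved by 1 position, and let-7 has an unrelated seed.
mmu-miR-291a-3p: aAAGUGCUuccacuuugugugc
mmu-miR-294-3p: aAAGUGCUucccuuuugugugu
mmu-miR-295-3p: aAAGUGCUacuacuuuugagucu
mmu-miR-302b-3p: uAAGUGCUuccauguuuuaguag
mmu-miR-302d-3p: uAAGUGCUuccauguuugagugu
mmu-miR-17-5p: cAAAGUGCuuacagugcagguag
mmu-miR-20a-5p: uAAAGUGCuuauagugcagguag
mmu-miR-93-5p: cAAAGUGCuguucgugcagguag
mmu-let-7a-5p: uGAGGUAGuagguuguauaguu
mmu-let-7g-5p: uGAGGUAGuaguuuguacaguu
The mature strands themselves are not in the count table, which lists genes, and target sites were not searched.

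Library totals were between 12752516 and 19412035 counts in experiment 3 and between 25724085 and 34758102 in experiment 4. Embryonic stem cell markers (10 genes) summed to 7440 to 8020 CPM (counts per 1000000, TMM-scaled) in tagged inputs and to 6957 to 8653 CPM in untagged inputs. Markers of endoderm, mesoderm, neuroectoderm, trophoblast and fibroblasts were at or below 38.6 CPM in summed level per list in every input. The first principal component, with 49.8% of the variance of log2 CPM, set the 6 tagged IPs (94.0 to 119) apart from the 18 other libraries (-54.7 to -25.7). Untagged IPs thus lay with the inputs on this axis.

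Of 19993 genes tested, 29.8% were called higher with the tagged protein and 32.2% lower, at an adjusted p under 0.05. Changes of at least 2-fold were called higher for 16.5% of genes and lower for 4.95%. Genes called higher had a median log2 IP over input of 1.05 in tagged cells and of -0.115 in untagged cells, and genes called lower had -0.529 and 0.076. At 2-fold or more the higher genes had 1.684 in tagged and -0.135 in untagged cells, whereas the lower genes had -0.683 and 0.637. Of these strongly lower genes 78.3% were below their input in tagged cells and above it in untagged cells. Their value thus includes RNA that the beads took up from untagged cells, and the untagged value is given below beside the depleted lists. The median over all genes was -0.097, and it moved to -0.254 when libraries were scaled by their totals.

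**Figure D1:**
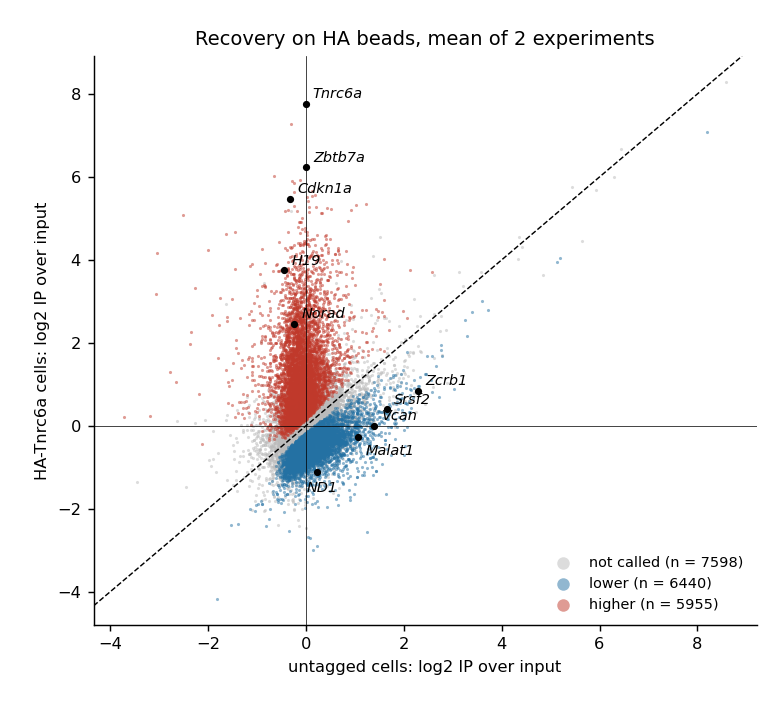
Each point is 1 of the 19993 genes tested, placed by its log2 IP over input in untagged cells (horizontal) and in HA-Tnrc6a cells (vertical), mean of both experiments, with red for genes called higher, blue for lower and grey for not called. The dashed line marks equal recovery. Higher genes spread upward along an untagged value near 0, while lower genes such as Zcrb1, Srsf2 and Malat1 lie to the right, above 1 in untagged cells.

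Protein-coding genes were ranked among those called, with equal sign in each experiment and a mean log2 CPM of at least 3. After Tnrc6a (log2 enrichment 7.77), the 9 highest of these were Zbtb7a (6.23), a zinc finger repressor, Zfp367 (6.2), Zfp768 (6.04), Gdf11 (5.88), a TGF-beta family ligand, Cdkn1a (5.80), the CDK inhibitor p21, Plagl2 (5.61), a zinc finger activator, Zfp827 (5.53), 9530068E07Rik (5.52) and Gnb5 (5.49), a G protein beta subunit. The Gnb5 count may hold reads of Gm19531 and Myo5c, which overlap it.

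Zbtb7a (chr10:81135225-81152222, GRCm38) had 4563, 3824 and 3204 CPM in the tagged IPs of experiment 3 and 3478, 2678 and 2695 CPM in those of experiment 4. Its 6 untagged IPs had 43.0 to 72.8 CPM, and the inputs of both lines lay in the same range of 42.1 to 72.8 CPM. Every tagged IP stood far above every other library, 74.9-fold after correction for input (SE 0.10 on the log2 scale, adjusted p = 1.31e-31 by edgeR's quasi-likelihood test with Benjamini-Hochberg adjustment). Gdf11 (chr10:128880524-128891718) is an example of a weakly expressed mRNA, with 1.08 to 2.86 CPM in the 18 other libraries and 110, 96.1 and 72.4 CPM in the tagged IPs of experiment 3, and 110, 94.8 and 84.5 CPM in those of experiment 4. Its groups did not overlap either.

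Tnrc6a mRNA (chr7:123031101-123195296) differed little between the inputs, with a log2 ratio of tagged to untagged of -0.12. Of the 7 GW182 and Argonaute mRNAs it is the one for which a difference between the experiments was called, with 8.67 in experiment 3 and 6.87 in experiment 4 (adjusted p = 0.0235 for the difference by edgeR, which was called for 0.365% of all genes). The highest noncoding or unclassified genes under the same limits were Gm45846 (7.58), Gm47513 (6.68) and AC167363.2 (5.58), none of which has a position in the RefSeq table used here.

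The mRNAs of all 7 GW182 and Argonaute genes were recovered by at least 2-fold, with a median of 2.40. Beside Tnrc6a these were Ago1 (3.47), Tnrc6b (2.44), Ago2 (2.40), Ago4 (2.03), Tnrc6c (1.49) and Ago3 (1.06), which encode the Argonaute proteins and the other two GW182 proteins. Tnrc6b overlaps Mir5113. Ago1 (chr4:126435012-126468707) had 896, 800 and 703 CPM in the tagged IPs of experiment 3 and 808, 654 and 641 CPM in those of experiment 4. The 18 other libraries had 56.7 to 85.3 CPM of Ago1. For each of the 7 genes all tagged IPs were above all other libraries, which held for 18% of all genes.

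Lists of factors that act after Tnrc6a had larger shares of genes higher than protein-coding genes as a whole, and single members stood out. Of 12 CCR4-NOT genes tested 8 were higher (66.7%) and 2 lower (16.7%), beside 34.9% and 32.0% of all protein-coding genes. At least 2-fold higher were 3 of them, and the median was 0.40. Scaled by library totals, 5 were higher and the median was 0.24. The catalytic deadenylase subunits Cnot6l (3.81) and Cnot6 (3.55) led, followed by Cnot9 (1.23). The scaffold Cnot1 (0.35) and the nuclease Cnot7 (0.45) were called higher by less than 2-fold, and Cnot3 (-0.43) and Cnot10 (-0.51) were lower. Cnot6 overlaps Gm12191 and Cnot9 overlaps Usp37.

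Cnot6l (chr5:96070333-96164198) had 226, 212 and 171 CPM in the tagged IPs of experiment 3, 199, 161 and 163 CPM in those of experiment 4, and 10.4 to 19.7 CPM elsewhere. Cnot6 had 1462, 1256 and 1081 CPM in tagged IPs of experiment 3 and 1054, 848 and 814 CPM in experiment 4, against 71.8 to 99.8 CPM in the other libraries. Neither gene overlapped between tagged IPs and the rest.

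The list of PAN nuclease, poly(A)-binding and Tob/Btg genes had 8 of 13 higher and 4 lower (median 0.33, and 0.17 with library totals). These shares were 61.5% and 30.8%, beside 34.9% and 32.0% of all protein-coding genes. All 5 that passed 2-fold were antiproliferative Tob and Btg genes, whose proteins bind the CCR4-NOT nucleases, led by Tob2 (4.73), Btg2 (4.13), Btg1 (3.83) and Tob1 (3.58). Tob2 had 273 to 362 CPM in tagged IPs and 10.8 to 20.0 CPM elsewhere, and Btg2 had 470 to 625 CPM against 25.5 to 43.5 CPM. The mRNAs of the PAN nuclease subunit Pan2 (-0.56), of Paip1 (-0.41), a regulator of poly(A)-binding protein, and of Pabpc1 (-0.29), the main cytoplasmic poly(A)-binding protein, were lower.

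Decapping and decay genes were higher in 10 of 17 cases (58.8%) and lower in 3 (17.6%, median 0.50), beside 34.9% and 32.0% of all protein-coding genes. The number lower was 7 with library totals, 6 without inputs and 5 without untagged IP 1 of experiment 3. Gigyf1 (3.51), a translation repressor that binds the cap-binding protein 4EHP, the decapping cofactors Dcp1b (2.78) and Dcp1a (1.75) and the decapping enzyme Dcp2 (2.40) passed 2-fold. Ddx6 (0.53), a helicase that links CCR4-NOT to decapping, and the exonuclease Xrn1 (0.50) were higher by less, and Lsm14a (-0.47) and the nuclear exonuclease Xrn2 (-0.83) were lower. Dcp1b lies within the extent of Cacna1c. Gigyf1 had 959 to 1470 CPM in tagged IPs and 71.4 to 151 CPM in the rest, so the groups did not overlap.

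MicroRNA biogenesis genes were split, with 5 of 13 higher and 5 lower around a median of 0.09, which was -0.07 with library totals. These shares of 38.5% each lie near the 34.9% higher and 32.0% lower of all protein-coding genes. Lin28a (1.77) and Lin28b (1.01), which block let-7 maturation, were at least 2-fold higher. Dicer1 (0.38) and Drosha (0.36), the processing nucleases, were higher by less, and Dgcr8 (-0.53), the partner of Drosha, and Prkra (-0.71), a partner of Dicer, were lower. Nonsense-mediated decay genes were mostly lower (9 of 15 lower and 4 higher, or 2 higher with library totals, median -0.33, with median log2 IP over input of -0.372 in tagged and -0.019 in untagged cells), with Rbm8a (-0.91) and Magoh (-0.90) of the exon junction complex lowest. Casc3 (1.21), of the same complex, was among the 2 that were at least 2-fold higher.

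Reported targets of the miR-290, miR-302 and miR-17 families were recovered almost without exception. Of the 28 entries of this list (27 genes, as Lats2 is listed under 2 identifiers) 27 were higher, each by at least 2-fold, and none was lower, with a median of 2.57 against -0.097 for all genes. In 27 of the 28 every tagged IP was above every other library, as it was for 18% of all genes. The list was put together with earlier results of these data known, and 19 of its entries are also on other lists below. Nr2f2, the entry that was not called (0.58), was close to absent, with 0 to 0.565 CPM outside the tagged IPs.

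Cdkn1a (chr17:29090979-29100722), the CDK inhibitor p21 and a reported target of these families, had 2743, 2486 and 1955 CPM in the tagged IPs of experiment 3. In experiment 4 the tagged IPs had 1273, 944 and 965 CPM. The 6 untagged IPs had 31.9 to 39.9 CPM and the 12 inputs 27.6 to 49.8 CPM. All tagged IPs were thus far above all other libraries, and the ratio corrected for input was 55.6-fold (log2 5.80 ± 0.11 SE, adjusted p = 9.77e-28 by the same edgeR test).

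Rbl2 (5.08), a retinoblastoma-like repressor that overlaps Aktip, had 552, 489 and 389 CPM in tagged IPs of experiment 3 and 410, 312 and 305 CPM in experiment 4, against 9.16 to 14.8 CPM elsewhere. Next came E2f2 (5.03), a cell cycle transcription factor, Casp2 (4.83), an initiator caspase, Lats1 (4.21), a Hippo kinase that overlaps Pcmt1, and Btg2 (4.13). Smarcc2 (1.32), a subunit of a chromatin remodeller, was the lowest entry that was called. The weakest called member was thus still at least 2-fold above the bead background. Wee1 (3.07), the kinase that delays mitotic entry, the Nodal antagonist Lefty1 (2.87) and the methyl-DNA-binding protein Mbd2 (2.22) lay between.

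Reported let-7 targets were higher in 15 of 24 cases, 12 of them by at least 2-fold, and lower in 6 (median 0.86). These shares were 62.5% and 25.0%, beside 34.9% and 32.0% of all protein-coding genes. Plagl2 (5.61) had 751 to 1160 CPM in tagged IPs and 15.4 to 30.7 CPM in the other libraries. E2f5 (2.51), Ccnd1 (2.42), which encodes cyclin D1 and overlaps LTO1, Mycn (2.31), Trim71 (2.17) and Lin28a (1.77) followed. All tagged IPs were above the other libraries for 11 of the 24, as they were for 18% of all genes. The oncogenes Hras (-0.63) and Myc (-0.83) were lowest. Myc had 17 to 51.1 CPM in tagged IPs and 29.3 to 94.2 CPM in untagged IPs, so its ranges overlapped, and within each experiment its 3 tagged IPs were below its 3 untagged IPs. Its log2 IP over input was 0.10 in tagged and 0.93 in untagged cells, so its lower value went with uptake on the beads without the tag.

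**Figure D2:**
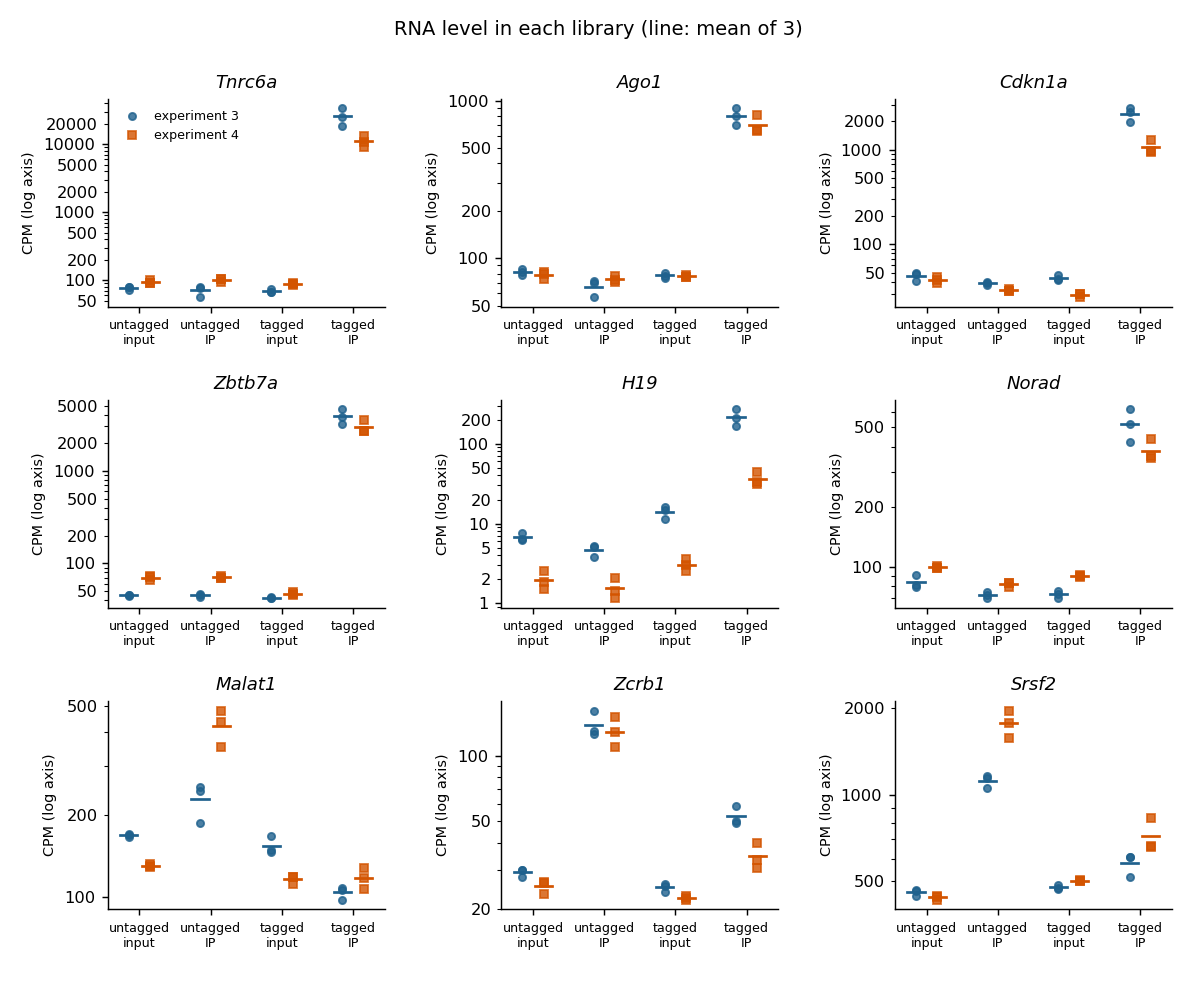
CPM on a logarithmic axis in each of the 24 libraries for 9 genes, with circles for experiment 3, squares for experiment 4 and a short line for the mean of 3 libraries. Tagged IPs are above all other libraries for Tnrc6a, Ago1, Cdkn1a, Zbtb7a, H19 and Norad, whereas for Malat1, Zcrb1 and Srsf2 the untagged IPs are the highest group in both experiments.

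Genes that control entry into S phase were recovered widely, beside 34.9% higher and 32.0% lower among all protein-coding genes. G1 cyclins, CDK inhibitors, Rb and E2F genes were higher in 21 of 27 cases, 15 by at least 2-fold, and lower in 3 (median 1.34). Cdkn1a, Rbl2 and E2f2 led, E2f1 reached 2.73, and the CDK inhibitors Cdkn1c (-0.42) and Cdkn2a (-0.76) were lower. The p53 network had 17 of 23 higher and 1 lower (median 0.97; 4 lower without inputs), with Ccng2 (5.21), an atypical cyclin, and Mdm4 (2.12), a p53 inhibitor. Ccng2 had 309 to 1881 CPM in tagged IPs and 9.18 to 51.5 CPM elsewhere. Trp53bp2, which encodes a p53-binding protein, was lower (-0.77). Apoptosis genes were more mixed (14 of 25 higher, 5 lower, median 0.37), led by Casp2 (4.83), the BH3-only gene Bcl2l11 (3.39), which overlaps Acoxl, and the survival gene Mcl1 (2.26), and their median was 0.21 with library totals and 0.24 without inputs. Cycs, which encodes cytochrome c, was lower (-0.82).

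Signalling pathways held strongly recovered members beside members that were lower. Their counts stand beside 34.9% higher and 32.0% lower among all protein-coding genes. In the Hippo pathway 12 of 21 entries were higher and 2 lower (median 0.82), with the kinases Lats1 (4.21) and Lats2 (3.24 and 2.72 for its 2 identifiers) and their cofactor Mob1b (3.10) in front, and the upstream kinase Stk3 (-0.58) lower. Of 29 Nodal and TGF-beta genes 19 were higher and 3 lower, or 5 lower with library totals (median 0.82). The receptor Tgfbr2 (3.73), the activin subunit Inhbb (3.71) and Lefty1 (2.87) led, and the growth factor Gdf3 (-0.51) and the target Id2 (-0.87) were lower.

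Inhbb had 829 to 3071 CPM in tagged IPs and 95.6 to 277 CPM in the other libraries. In the Wnt pathway 21 of 31 genes were higher and 4 lower, or 6 lower with library totals (median 0.58). The receptor Fzd6 (3.85) and the ubiquitin ligases Znrf3 (3.57) and Rnf43 (2.92), which remove Wnt receptors, were highest, while Ctnnb1 (-0.47), which encodes beta-catenin, and Dvl1 (-0.57) were lowest. FGF-ERK genes were higher in 16 of 30 cases and lower in 6 (median 0.34). With library totals 9 were lower and the median was 0.18, and without inputs 10 were lower and it was 0.14. The ligand Fgf4 (3.67) and the feedback inhibitor Spry4 (3.02) were recovered strongly, as was the exchange factor Sos1 (2.86), and the kinase Map2k1 (-0.47) and Hras (-0.63) were lower. Fgf4 had 1357 to 2280 CPM in tagged IPs against 113 to 159 CPM elsewhere.

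Among chromatin genes, Polycomb members were higher in 21 of 31 cases and lower in 4, or 6 without inputs (median 0.64), led by the PRC1 components Phc3 (4.71) and Cbx6 (4.13), the latter overlapping Npcd, and by Scml2 (3.13). The core subunits Eed (-0.53) and Ring1 (-0.55) were lower. DNA methylation genes were evenly split (6 of 15 higher, 7 lower, median -0.08). These shares were 40.0% and 46.7%, beside 34.9% and 32.0% of all protein-coding genes. The dioxygenase Tet3 (2.66) and the methyl-CpG-binding protein Mbd2 (2.22) were higher, and Dnmt3l (-0.47) and Mbd3 (-0.49) lower. Phc3 had 412 to 758 CPM in tagged IPs and 11.3 to 26.1 CPM elsewhere, so its groups did not overlap.

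Pluripotency genes divided in a similar way, with 12 of 25 higher and 10 lower (median 0.12, and -0.04 with library totals). Protein-coding genes as a whole were also split, with 34.9% higher and 32.0% lower, so division into both directions is not particular to this list. Fgf4 (3.67), Klf2 (2.66), Lin28a (1.77), Klf4 (1.29) and Sox2 (0.81) were higher. Pou5f1 (-0.55), which encodes Oct4, Nanog (-0.24) and the Dppa genes Dppa4 (-0.76), Dppa5a (-0.87) and Dppa3 (-0.93) were lower. Klf2, at 220 to 420 CPM in the other libraries, reached 2323 to 3458 CPM in tagged IPs. Pou5f1 moved the other way, with 733 to 1060 CPM in tagged IPs and 1226 to 1919 CPM in the rest. Sox2 lies within Sox2ot, and Dppa3 had at most 4.08 CPM in any library.

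**Figure D3:**
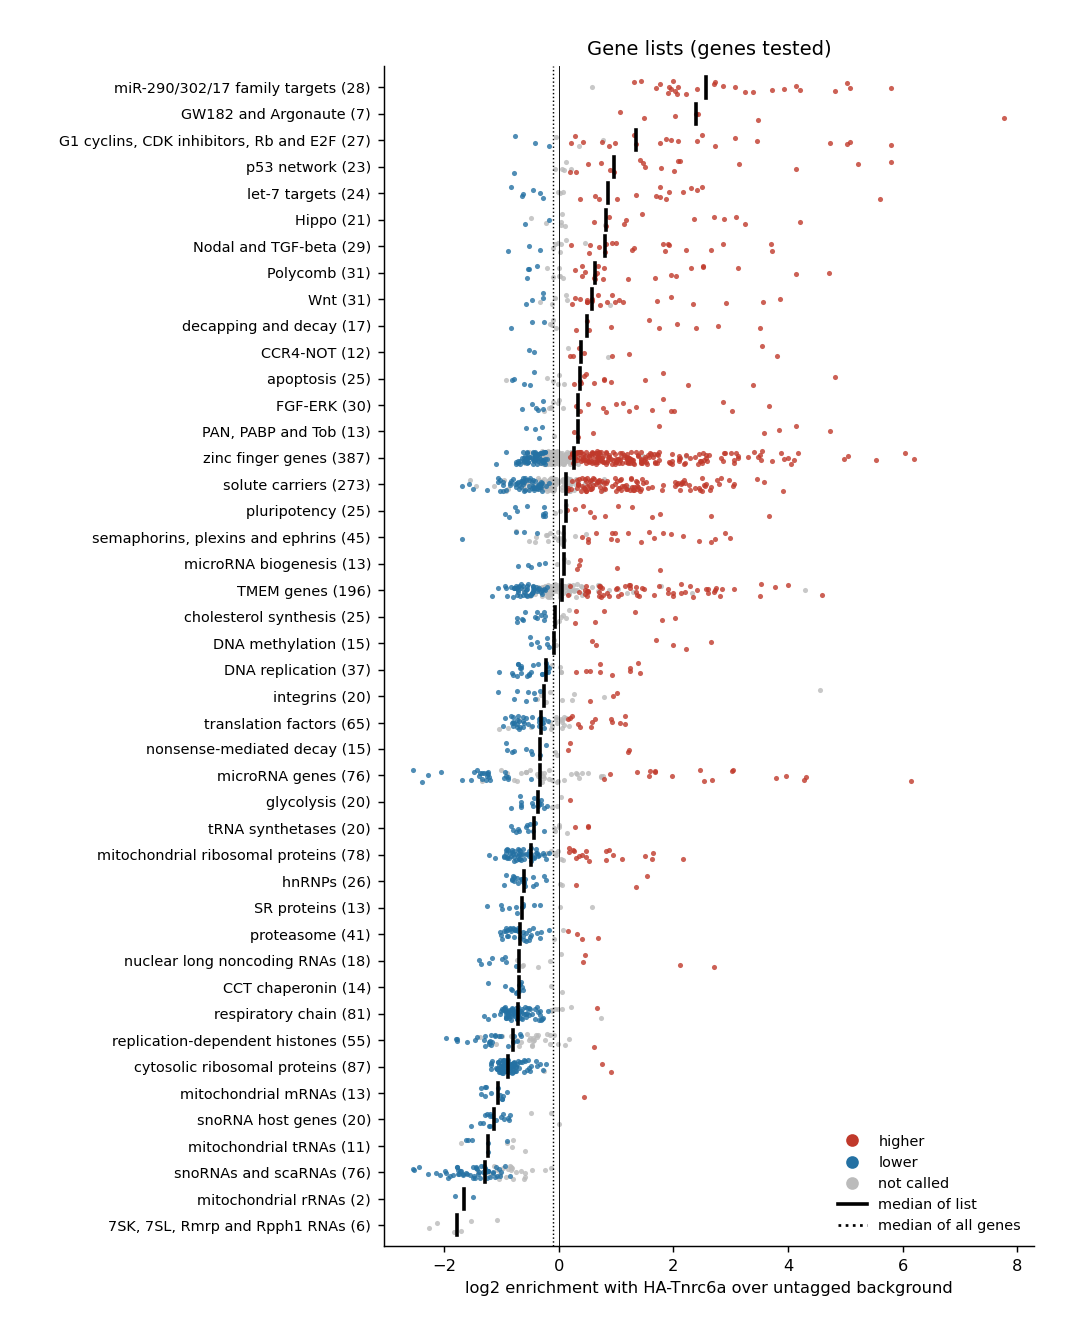
Log2 enrichment (horizontal axis) of every tested member of 44 gene lists, 1 point per gene, red for called higher, blue for lower and grey for not called, with a bar at the median of each list and a dotted line at the median of all genes. Lists are ordered by their median, from 2.57 for targets of the miR-290, miR-302 and miR-17 families to -1.76 for the 6 entries of 7SK, 7SL, Rmrp and Rpph1 RNA, none of them called, whose median was -0.50 without tagged input 3 of experiment 3. Numbers in parentheses are genes tested.

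Lists of abundant housekeeping mRNAs were mostly lower. Cytosolic ribosomal protein genes were lower in 84 of 87 cases (median -0.88), with Rps27l (-1.19) among the lowest. Rps27 (0.92) and Rpl7l1 (0.76) were the 2 that were called higher. In tagged cells the median log2 IP over input of these genes was -0.86 and in untagged cells -0.07. By these medians the lower value lay mostly in the tagged IPs.

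Nuclear-encoded respiratory chain genes (73 of 81 lower, median -0.71), proteasome subunits (35 of 41 lower, median -0.67), the CCT chaperonin and prefoldin (12 of 14 lower, median -0.69) and glycolysis enzymes (16 of 20 lower, median -0.36, and -0.56 without inputs) had the same direction, with untagged medians of log2 IP over input between -0.176 and -0.005. In these 4 lists 1, 4, 0 and 1 genes were called higher. Ndufa12 (-1.30), a complex I subunit, was the lowest respiratory gene. Mitochondrial ribosomal proteins (52 of 78 lower, 19 higher), translation factors (34 of 65 lower, 13 higher), tRNA synthetases (12 of 20 lower, 3 higher) and DNA replication genes (23 of 37 lower, 10 higher) were more mixed, with medians of -0.49, -0.31, -0.43 and -0.23. Their untagged medians of log2 IP over input were -0.012, -0.046, -0.044 and 0.017. With library totals translation factors had 8 higher and a median of -0.47, and DNA replication genes a median of -0.39. Mrps25 (2.17), a mitochondrial ribosomal protein, and the replication licensing factor Cdc6 (1.41) were the highest in their lists. Cholesterol synthesis genes had 7 of 25 higher and 12 lower, around a median of -0.06, which is near the -0.097 of all genes.

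Splicing factor mRNAs were depleted as well. SR proteins were lower in 11 of 13 cases and higher in none (median -0.64), and hnRNP genes lower in 21 of 26 and higher in 3 (median -0.60). The shares lower were 84.6% and 80.8%, beside 32.0% of all protein-coding genes. Srsf2 (-1.26), an SR protein that overlaps Mfsd11, Srsf5 (-1.0), Hnrnpa2b1 (-0.95) and Hnrnpa3 (-0.92) were the lowest. Hnrnpul1 (1.54) and the neural PTB paralogue Ptbp2 (1.35) were higher. The median log2 IP over input of SR genes was 0.256 in untagged and -0.255 in tagged cells, so uptake without the tag moved with their result. For hnRNP genes it was 0.046 in untagged and -0.544 in tagged cells.

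Srsf2 (chr11:116849897-116853675) had 1055, 1167 and 1143 CPM in the untagged IPs of experiment 3 and 1964, 1579 and 1780 CPM in those of experiment 4. Its inputs had 433 to 505 CPM in both lines, and its tagged IPs 517 to 830 CPM. The tagged IPs were therefore above their inputs and the untagged IPs higher still, which made the value negative. The same order held for Zcrb1 (-1.45), a U11/U12 spliceosome protein and the lowest protein-coding gene under the naming rule. It had 109 to 160 CPM in untagged IPs, 30.7 to 58.8 CPM in tagged IPs and 22.0 to 30.1 CPM in the inputs. CPM are shares of a library, and whether the untagged beads held more of these RNAs in amount was not tested.

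The other lowest protein-coding genes were Ccdc84 (-1.42), which overlaps Rps25, the matrix proteoglycan Vcan (-1.40), Fam174a (-1.37), Coa8 (-1.31), Ndufa12 (-1.30), the tubulin cofactor Tbca (-1.29), the spliceosome protein Bcas2 (-1.28), Srsf2 and the RNA-binding protein Rbmx (-1.23). Coa8 had 23.4 to 33.5 CPM in tagged IPs, 61.2 to 85.2 CPM in untagged IPs and 16.9 to 22.1 CPM in inputs. Rbmx differed from it, with 7.36 to 13.7 CPM in tagged IPs, 10.5 to 18.1 CPM in inputs and a log2 IP over input of -0.62 in tagged and 0.61 in untagged cells.

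Named long noncoding RNAs lay on both sides, as genes did as a whole. Of 18 nuclear or regulatory long noncoding RNAs 4 were higher (22.2%) and 8 lower (44.4%, median -0.69), or 12 lower with library totals. The shares were 29.8% and 32.2% for all genes, and 20.5% and 23.8% for all long noncoding genes. Their median log2 IP over input was 0.406 in untagged and -0.033 in tagged cells. Norad (2.7), a cytoplasmic RNA that binds Pumilio proteins, and Rian (2.12), from the imprinted Dlk1-Dio3 region, were the highest, and Rian overlaps Rtl1. Norad (chr2:156388063-156392979) had 616, 522 and 422 CPM in tagged IPs of experiment 3 and 437, 358 and 350 CPM in experiment 4, against 69.7 to 101 CPM elsewhere. Its groups did not overlap.

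Malat1 (-1.35), Xist (-1.38), Meg3 (-0.93) and Neat1 (-0.74) were lower, and 6 of the 18 were not called. Meg3 and Neat1 were named after their values were seen, and location in the cell was not tested. Malat1 (chr19:5795690-5802672) had 97.7, 106 and 108 CPM in tagged IPs and 187, 244 and 253 CPM in untagged IPs of experiment 3. In experiment 4 it had 107, 127 and 118 CPM in tagged IPs and 480, 353 and 435 CPM in untagged IPs. Inputs were at 112 to 170 CPM, so untagged IPs were the highest group, and the log2 IP over input was -0.28 in tagged and 1.07 in untagged cells. Xist overlaps Tsix, and at 6.05 to 12.3 CPM in the inputs it was far less abundant.

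H19, the maternally expressed imprinted RNA that hosts miR-675, was singled out after its values were seen. It had 268, 212 and 166 CPM in tagged IPs of experiment 3 and 44.2, 33.0 and 31.7 CPM in experiment 4, while untagged IPs had 3.77 to 5.31 and 1.16 to 2.06 CPM. The enrichment was 4.45 in experiment 3 and 3.93 in experiment 4, although the RNA itself was several times less abundant in the latter. Its input level also differed by genotype, with a log2 ratio of tagged to untagged of 0.85. That difference is taken out of the enrichment by its construction.

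MicroRNA genes are counted here as precursor or host RNA. Among 79 such genes 76 were tested, 18 of them higher and 26 lower (median -0.33). These shares of 23.7% and 34.2% lie near the 29.8% and 32.2% of all genes. The highest lie inside other recovered transcripts, as Mir1902 (6.14) overlaps Hipk3 and Mir675 (4.31) lies in H19, so reads of the host cannot be told apart from them. The genes of the miR-290 cluster, chosen after their values were seen, were on the other side. Mir291b (-1.27), Mir292b (-1.26), Mir293 (-2.06), Mir294 (-1.20) and Mir295 (-1.33) were lower, and Mir292 had -0.73 without being called.

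All but Mir291b of them were at or below 5.74 CPM in every library, and Mir291b had 2.07 to 3.55 CPM in tagged IPs against 4.76 to 8.98 CPM in untagged IPs. Mir17hg (-1.37), the host transcript of the miR-17 cluster (also singled out afterwards), had 28.9 to 44.8 CPM in tagged IPs, 67.7 to 98.2 CPM in untagged IPs and 20.3 to 33.1 CPM in inputs. For this host transcript, as for Srsf2, tagged IPs were above their inputs on average (log2 0.33) and untagged IPs were higher still (1.70).

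Small and mitochondrial RNAs were depleted. None of 76 snoRNAs and scaRNAs was higher and 54 were lower (median -1.29), and their host genes followed (17 of 20 lower, none higher, median -1.13), with Gas5 at -1.29. For both, uptake by the beads from untagged cells was part of the value, with untagged medians of log2 IP over input of 1.176 and 0.761 and tagged medians of -0.206 and -0.315. Mitochondrial mRNAs were lower in 12 of 13 cases (median -1.05), with ND2 (0.43) as the exception, and here the tagged median was -1.772 and the untagged median -0.596. ND2 had 203 to 245 CPM in tagged IPs and 113 to 154 CPM in untagged IPs, and with library totals it was no longer called. The 2 mitochondrial rRNAs were lower (median -1.642, and -1.042 without tagged input 3 of experiment 3), as were 6 of 11 mitochondrial tRNAs (median -1.225). The rRNA median was -2.642 in experiment 3 and -0.642 in experiment 4, and in a fit of experiment 4 alone 1 rRNA was called lower. Replication-dependent histone mRNAs, which end without a poly(A) tail, were lower in 26 of 55 cases (47.3%, beside 32.2% of all genes) and higher in 1 (median -0.79). Their median log2 IP over input was -0.719 in tagged and 0.040 in untagged cells. The number lower was 18 without inputs (median -0.53) and 21 without tagged input 3 of experiment 3 (median -0.67). It was 12 in experiment 3 alone and 9 in experiment 4 alone. All tagged IPs were below all untagged IPs for 1 of the 55, as they were for 14.4% of all genes. None of the 6 entries for 7SK, 7SL, Rmrp and Rpph1 RNA was called, and their median was -4.137 in experiment 3 and 0.347 in experiment 4. The mean of both, -1.76, was -0.50 without tagged input 3 of experiment 3 and -0.57 without inputs.

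By gene class, protein-coding genes had a median of -0.01 with 34.9% higher and 32.0% lower. Long noncoding genes had 20.5% higher and 23.8% lower (median -0.13), pseudogenes 11.2% higher and 43.7% lower (median -0.47), and other small noncoding genes 9.01% higher and 54.1% lower (median -1.14). Of 26 mitochondrially encoded genes 20 were lower and 1 higher. Among protein-coding genes the median also increased with gene length. Those under 1000 bases had a median of -0.63 with 7.99% called higher, and the median was -0.36 from 1000, -0.10 from 2000, 0.11 from 4000 and 0.21 from 8000 bases on, where 45.7% were called higher. Depleted lists differed in length, with medians of 1734 bases for cytosolic ribosomal proteins, 4810 for SR proteins and 5897.5 for hnRNP genes, beside 5217 bases for the targets of the miR-290, miR-302 and miR-17 families and 3327 for all genes. The part of length in the list results was not tested.

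**Figure D4:**
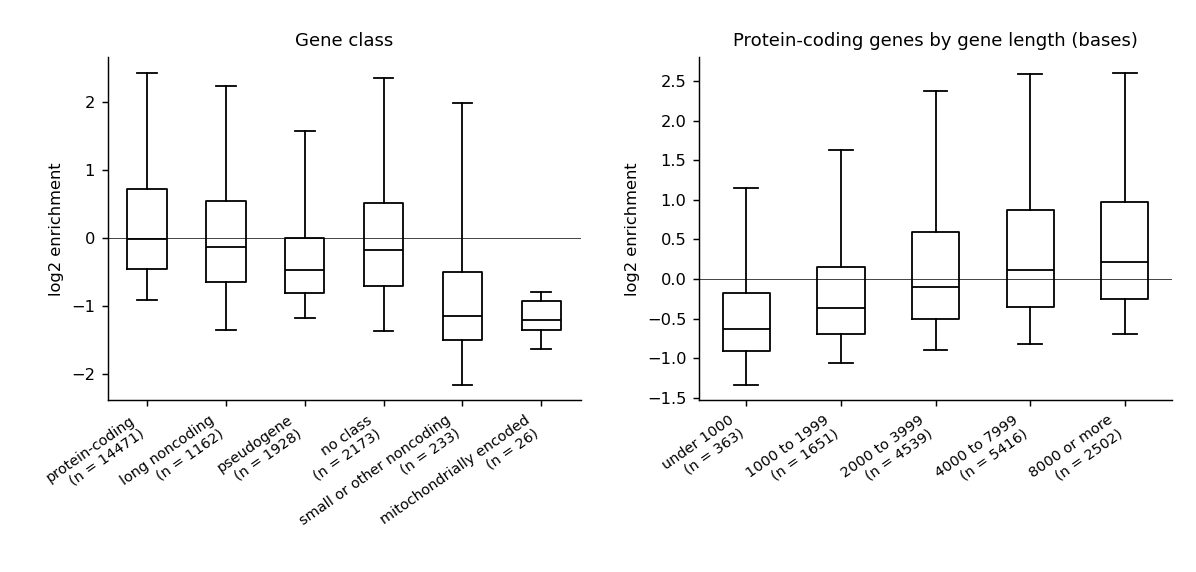
Log2 enrichment by gene class (left) and, for protein-coding genes, by gene length in bases (right). Boxes span the quartiles with a line at the median, and whiskers reach the 5th and 95th percentiles. Medians go from -0.01 for protein-coding to -1.20 for mitochondrially encoded genes, and from -0.63 for genes under 1000 bases to 0.21 for those of 8000 or more.

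Families grouped by symbol were also counted, beside 34.9% higher and 32.0% lower among all protein-coding genes. Zinc finger genes were higher in 187 of 387 cases (48.3%) and lower in 62 (median 0.26), and with library totals 107 were lower and the median was 0.10. Solute carriers had 110 of 273 higher (40.3%) and 60 lower (median 0.13), and TMEM genes 60 of 196 higher (30.6%) and 47 lower (median 0.06). Semaphorins, plexins and ephrins had 20 of 45 higher (44.4%) and 4 lower (median 0.10). With library totals the medians of these last 3 families were -0.03, -0.10 and -0.06, and 84, 62 and 6 of their genes were lower. Integrins had 3 of 20 higher and 8 lower (median -0.26, and -0.42 with library totals). The number lower rests on few calls in the last 2 families, being 5 for integrins without untagged IP 1 of experiment 3 and 1 for semaphorins, plexins and ephrins without untagged input 2 of experiment 3.

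The 2 experiments share no library, so each can be read against the other. Of 5063 genes called higher in experiment 3, 88.3% were called higher in experiment 4 (28.9% of all genes), and of 3851 called lower, 87.3% were lower there (31.6% of all genes). Of 5311 genes called higher in experiment 4, 84.1% were called higher in experiment 3 (27.5% of all genes). Of 5808 called lower, 57.9% were lower there (20.9% of all genes). Experiment 3 was sequenced less deeply, and the part of depth in these shares was not tested. At 2-fold or more, 93.5% of 3305 higher and 63.2% of 448 lower genes of experiment 3 were called alike in experiment 4. From experiment 4 the shares were 92.6% of 2891 higher and 51.9% of 1186 lower genes. A difference between experiments was called for 73 genes, 0.365% of those tested, but this number changed with the processing from 20 to 482.

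**Figure D5:**
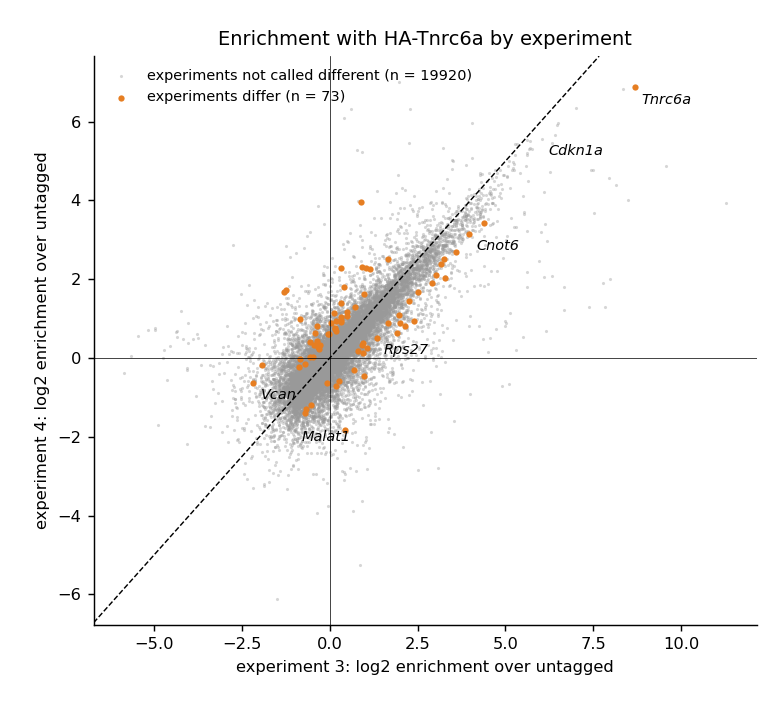
Log2 enrichment over the untagged background in experiment 3 (horizontal) and experiment 4 (vertical) for each gene, with the 73 genes called different between experiments in orange and equality as a dashed line. Tnrc6a lies below the line at 8.67 and 6.87, and Vcan above it at -2.17 and -0.63.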

How the data were processed

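RNA of 24 libraries was sequenced with a stranded total RNA kit, per the labels. The authors deposited raw counts per gene (20171 genes), used as deposited; 48 further per-sample columns were not used. The submitters' processing notes name bcl2fastq 2.20, STAR 2.7.3a and the builds GRCm38 and mm10 without roles. Whether counting used strand is not given in the sources used here, so overlapping genes are uncertain. Count columns numbered 1 to 3 are experiment 3; those numbered 4 to 6 were taken as experiment 4 and carry no replicate label.

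Tests used edgeR 4.0.16 with limma 3.58.1 in R 4.3.3: TMM scaling, filterByExpr (minimum count 10), 8 groups, the robust quasi-likelihood test, two-sided, and Benjamini-Hochberg adjustment over the 19993 genes kept. Adjusted p values measure the spread between these dishes, which may be technical. On simulated counts for 19450 genes the test recovered 84% of 2-fold and 100% of 4-fold increases and called 0.0468% of unchanged genes. There 50 genes were changed at each fold and direction and 19250 were not, with counts drawn from the fitted model. In the data 62% of genes were called, so the simulated share of false calls need not hold for them.

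The libraries, the 44 gene lists and the 6 marker lists were chosen with earlier results of these data known. Genes named by rule are the GW182 and Argonaute genes, the 10 highest and 10 lowest protein-coding genes and the 3 highest and lowest others (called, with equal sign in each experiment, mean log2 CPM of 3 or more), and the 3 highest and 2 lowest of each list. Further genes were named after their values were seen, among them H19, Mir17hg, the Mir290 cluster, Pou5f1, Nanog, Mycn, Trim71, Tob1, Pabpc1, Cnot1, Cnot7, Dcp1a, Ddx6, Xrn1, Drosha, E2f1, Mdm4, Wee1, Gas5, Meg3 and Neat1. The mitochondrial symbols of the lists were adapted to the table. The table gave 16427 symbols and the reference 3725 more. Positions and overlaps are from RefSeq GRCm38.p6 (16415 genes matched by Entrez identifier, 1543 by symbol). Alternatives were RLE factors, library totals, no filter, all 48 libraries, a replicate block, DESeq2 1.42.0, no inputs, each experiment alone and each library left out.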

Additional observations from a re-analysis of the deposited data

Results flagged for a closer look

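For 4 of the genes described above the enrichment in experiment 4 differed from that in experiment 3 by a test of the difference, which was called for 0.365% of all genes tested. Tnrc6a was lower in experiment 4 by a log2 difference of -1.8, Rps27, a ribosomal protein, by -0.82 and the deadenylase Cnot6 by -0.8. Vcan was less depleted in experiment 4, with a difference of 1.55, and its untagged IPs had 99.5, 101 and 105 CPM in experiment 3 but 41.6, 33.7 and 34.3 CPM in experiment 4, while its tagged IPs had 17.4 to 27.1 CPM in both.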

How the results depend on the processing

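The count of genes called in the enrichment (12395) stayed within 1.5-fold under every alternative run, from 8932 in experiment 3 alone to 14412 without inputs, and from 12095 to 12451 with 1 library left out. The count for the difference between experiments (73) did not: it was 482 with library totals, 226 with all 48 libraries fitted together, 160 with the replicate number as a block and 387 with DESeq2, and 20 to 337 with 1 library left out (20 without tagged input 4 and 337 without tagged IP 4 of experiment 4, and 25 without tagged input 3 and 242 without tagged IP 3 of experiment 3). The cause was not tested. The share of these genes that were higher in experiment 4 was 56.2% with TMM, 28.9% with RLE factors and 5.39% with library totals, and 30.1% with all 48 libraries, so no direction is drawn from them. With the replicate block the enrichment count was 12435; same-numbered libraries did not deviate together (mean correlation 0.0136, from -0.0348 to 0.175 over 36 pairs, against -0.00675 for other pairs), so the numbers were not taken as pairs. Scaling with the authors' own factors is not reported, because columns of experiment 4 that hold them could not be tied to single samples. Of 8808 values under alternatives for 276 genes, which include extremes of lists that the text gives only as counts, 8579 kept direction and call, 160 lost the call, 66 gained it and 3 changed sign: Dab2 without inputs (0.209), Dppa3 in experiment 3 alone (0.031) and Esrrb with library totals (-0.01). DESeq2 was run for the counts of genes. Depth limits RNAs below about 1 CPM, among them Nr2f2.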

Other observations

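Grouping protein-coding and pseudogene entries by a word in the gene name, a choice made after values were seen, gave a further description. Of all protein-coding genes 34.9% were higher and 32.0% lower. Genes named for transcription factors were higher in 92 of 172 cases (53.5%) and lower in 30 (17.4%, median 0.46). RAB genes were higher in 38 of 68 (55.9%) and lower in 11 (16.2%, median 0.40). Kinases were higher in 297 of 622 (47.7%) and lower in 153 (24.6%, median 0.21). Receptors were higher in 274 of 669 (41.0%) and lower in 115 (17.2%, median 0.26). Helicases were higher in 15 of 66 (22.7%) and lower in 42 (63.6%, median -0.35). Splicing factors were higher in 6 of 36 (16.7%) and lower in 26 (72.2%, median -0.48). Only some of the words counted are listed. Nearly even counts were found for RNA binding (38 of 96 higher, 41 lower) and kinesin (18 of 48 higher, 15 lower). Of 303 ribosomal protein pseudogenes, whose reads may belong to the parent genes, 2 were higher and 228 lower (median -0.81), near the value of the parent genes (-0.88).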
